A study of Homo sapiens with 12 samples.

Results

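The transcripts of 46 regulators of Polycomb repression, DNA methylation and heterochromatin were followed in HepG2, an established human hepatoma cell line. The 46 genes were taken by symbol from a table of 35984 genes, and all 46 were found there. They comprise 7 genes of DNA methylation and its removal, 7 of Polycomb repressive complex PRC2, 9 of the Polycomb complex PRC1, 9 of H3K9 methylation and heterochromatin protein HP1, 5 enzymes acting on H3K4 or H3K27, the chaperone pair ATRX and DAXX, 4 deacetylases and 3 genes of the nuclear lamina. All 46 also passed the filter on low counts, which left 16118 genes for testing.

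Cells of the double knock-down (DKD) carried integrated retroviral shRNA cassettes against the transcripts of macroH2A1 and macroH2A2, and control cells (CTL) carried control shRNAs. Both lines were exposed for 24 hours to the cytokine TNFα (20 ng/mL) or to its vehicle alone (PBS with BSA, called untreated), in both cases after a night in low serum. This gave TNFα-treated DKD, untreated DKD, TNFα-treated CTL and untreated CTL cells, with 3 libraries per group and 12 in all. Whether replicate libraries represent independent cultures is not stated in the labels, and the p-values therefore cover library-to-library spread that may be technical. Whether an arm was made from 1 pool of transduced cells is not stated either, so a line difference and an effect of the knock-down cannot be told apart.

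MacroH2A proteins are variants of histone H2A with a large C-terminal macro domain, known from the inactive X chromosome and other silenced chromatin. Most of the regulators studied here write, read, erase or anchor repressive marks of such chromatin, while KMT2A, KMT2D and KDM5B act on H3K4 methylation, a mark of active genes. DNA methyltransferases mark CpG sites, PRC2 methylates H3K27, PRC1 binds that mark and ubiquitinates H2A, and the SUV39H, SETDB1 and EHMT enzymes methylate H3K9, the mark that HP1 proteins bind. Histone deacetylases remove an active mark, and lamins with the lamin B receptor hold heterochromatin at the nuclear edge.

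Values are normalised counts (CPM), that is, counts relative to the library total, scaled with TMM factors, which are comparable between libraries for a given gene but are not corrected for transcript length between genes. Library totals ran from 30955080 to 42094144 estimated counts, so that 1 count was worth 0.0238 to 0.0320 CPM. The gene with the fewest counts of the 46 was CBX7, with 16 to 54 counts per library, and the other 45 had at least 499. Both targeted transcripts were reduced throughout the knock-down: MACROH2A1 lay at 32.4 to 63.5 CPM in DKD against 205 to 279 CPM in CTL libraries, and MACROH2A2 at 3.28 to 6.01 against 41.0 to 60.4 CPM. Hepatocyte markers were present in every library, with HNF4A at 236 to 372 CPM. However, averaged over both treatments, 6 of 11 were called higher in DKD cells (54.5%, against 14.5% of all genes) and 0 lower. ALB, the albumin gene, lay at 2163 to 8437 CPM in DKD against 212.8 to 550 CPM in CTL libraries (log2 fold change 3.54, adjusted p = 7.38e-07 by edgeR). The 11 markers summed to 20770 to 26230 CPM in TNFα-treated and 26280 to 38260 CPM in untreated DKD cells, against 17870 to 19480 CPM in TNFα-treated and 21060 to 22650 CPM in untreated CTL cells. With TNFα, averaged over both lines, 4 of them were called lower (36.4%, against 7.22% of all genes). The part of this difference in hepatocyte markers in the values of the regulators was not tested. Among 17 markers of other cell types CD3E and KRT14 were at 0 in all libraries. LYZ, at 351 to 1247 CPM, was the exception, and the other 16 summed to 43.3 to 70.8 CPM per library. With TNFα, averaged over both lines, LYZ was higher (log2 fold change 1.34, adjusted p = 1.8e-05 by edgeR). All 6 genes of a list of known TNF response genes were called higher in that comparison (100%, against 7.22% of all genes).

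The libraries numbered 1 of the knock-down stood apart, and this was not particular to the regulators. In untreated DKD replicate 1, each gene was compared with the mean of replicates 2 and 3 on the log2 scale. Of the 46 regulators, 17 lay more than 0.5 below and 5 more than 0.5 above, or 47.8%. Of all genes tested, 3361 lay below and 3363 above by that much, or 41.7%. In TNFα-treated DKD replicate 1 the share was 10.9% of the regulators, against 28.8% of all genes. The de novo DNA methyltransferase DNMT3B was lowest there, at -2.00 without TNFα and -0.98 with it, followed by UHRF1, which guides DNMT1 to newly replicated DNA, at -1.60 and -0.98. The H3K27 demethylase gene KDM6B was highest, at 1.50 without TNFα and 0.96 with it, and the deacetylase gene SIRT6 lay at 1.13 and 0.45. Part of this was shared with CTL cells, where DNMT3B was also the lowest regulator in replicate 1, at -1.42 without TNFα and -0.79 with it. UHRF1 lay there at -0.66 and -0.18, KDM6B at 0.52 and 0.26, and SIRT6 at 0.69 and -0.01. The share past 0.5 in CTL replicate 1 was 15.2% without TNFα (19.7% of all genes) and 4.35% with it (16%). The median of 22 proliferation markers was -0.97 in untreated DKD replicate 1 and -0.46 in TNFα-treated DKD replicate 1, against -0.20 and 0.11 in the replicate 1 libraries of untreated and TNFα-treated CTL cells. The list was not uniform: MKI67 was at 418.5, 353.9 and 417.4 CPM in untreated and 404, 337.8 and 361.3 CPM in TNFα-treated DKD cells. For DKD over CTL, averaged over both treatments, the markers' median log2 fold change was -0.04. Of the 22, 1 was called lower (4.55%, against 14.5% of all genes), which was MKI67 (-0.64, adjusted p = 0.00261 by edgeR). The part of proliferation in the values of the regulators was not tested. In bulk RNA, fewer cells of a kind and less RNA per cell cannot be told apart.

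**Figure D1:**
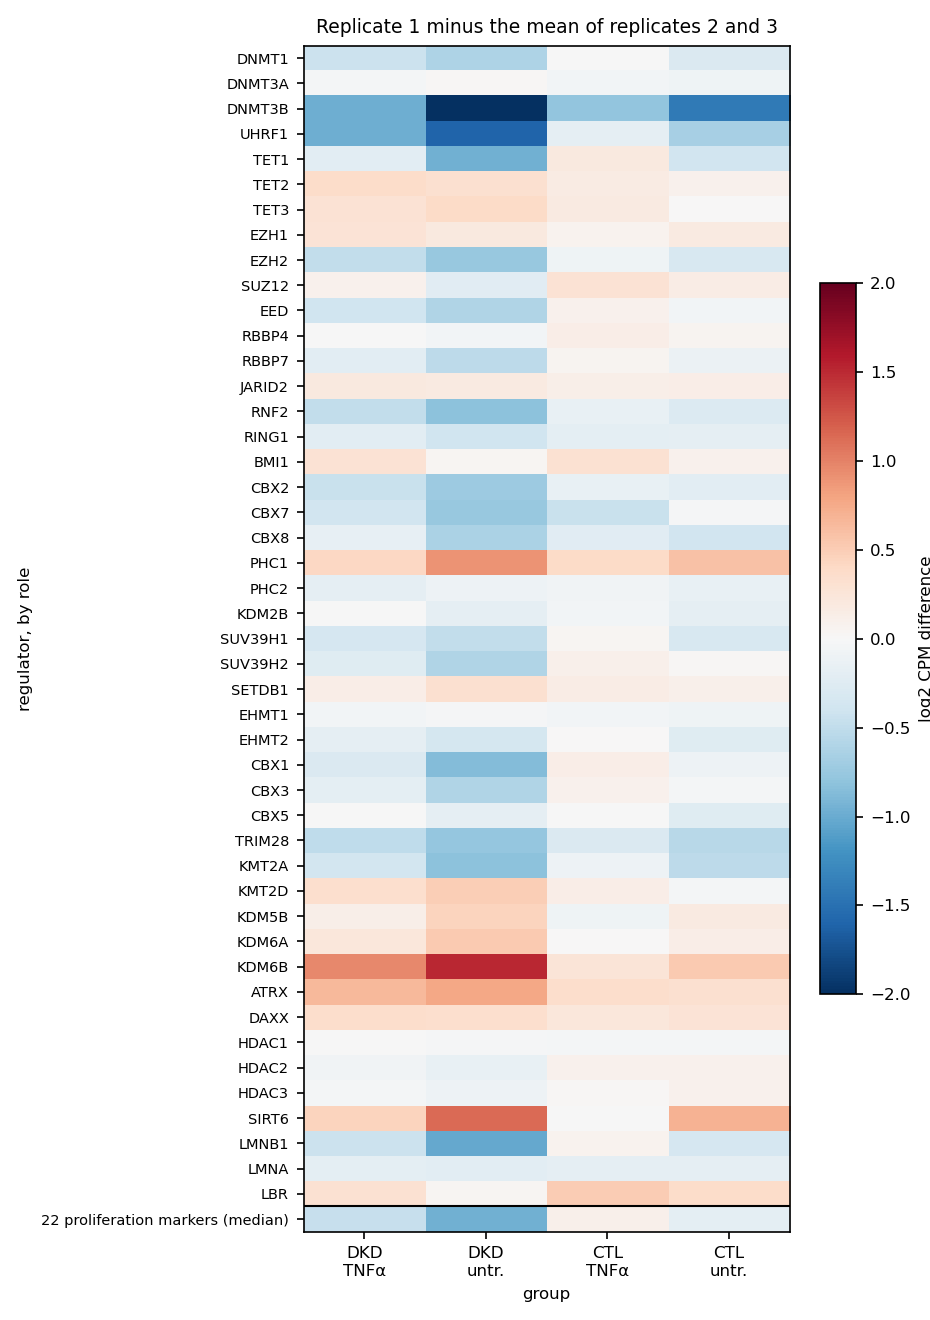
Log2 CPM of replicate 1 minus the mean of replicates 2 and 3 for each of the 46 regulators (rows, by role) in the 4 groups (columns), with the median of 22 proliferation markers in the bottom row; blue is lower and red higher in replicate 1. Untreated DKD cells hold the strongest colours, from -2.00 for DNMT3B to 1.50 for KDM6B, while HDAC1, HDAC2, HDAC3 and DNMT3A are pale in all 4 groups.

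Knock-down cells had more transcript of BMI1, a core subunit of PRC1, and less of HDAC2, CBX5 and DNMT3A than control cells, averaged over both treatments. BMI1 was 1.59 times as high, and HDAC2 was 0.777, CBX5 0.833 and DNMT3A 0.866 times as high as in control cells. These 4 of 46 regulators (8.70%) passed edgeR's quasi-likelihood test at an adjusted p under 0.05 with Benjamini-Hochberg adjustment over all genes tested, against 14.5% of all genes. The median log2 fold change of the 46 was -0.05, with 29 below 0, and that of all genes was 0.01. With the replicate number as a block, 12 regulators (26.1%) were called, 2 higher and 10 lower, against 31.2% of all genes. From replicates 2 and 3 alone 9 were called (19.6%, against 25.4% of all genes), and without both knock-down libraries numbered 1, an alternative chosen after seeing the data, 9 were called (against 20.5%). All 6 DKD and all 6 CTL libraries were separate for 3 regulators, BMI1, HDAC2 and CBX5, against a background of 8.03%. The sign of the averaged value was opposite for 14 of the 46 regulators from replicates 2 and 3 alone and for 13 without both knock-down libraries numbered 1. Their values from all libraries were at most 0.14 in size, and 1 of them, KDM6B, was called with the opposite sign in both fits. The fit without both knock-down libraries numbered 1 kept the control libraries numbered 1, so replicate number was not balanced between the lines in it.

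Within each treatment fewer regulators were called. Without TNFα, BMI1 was higher and HDAC2 and CBX5 were lower in DKD cells, which is 3 of 46 (6.52%) against a background of 4.98%. With the replicate block the count was 6, against 16.5% of all genes. The count of 3 without the block rested on single libraries: it was 1 without DKD untreated replicate 2 (against 3.08% of all genes), CTL untreated replicate 2 (2.86%) or CTL untreated replicate 3 (2.57%). With TNFα, BMI1 was higher and HDAC2 lower, or 2 of 46 (4.35%) against a background of 6.24%, and the replicate block called 6 against 19.4%. Groups did not overlap for 8 regulators without TNFα (1 higher and 7 lower in DKD cells), which is 17.4% against a background of 21.7%, and for 9 with TNFα (1 higher and 8 lower), or 19.6% against 25.4%.

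TNFα raised LMNA, the gene of lamins A and C, and lowered DNMT3A, averaged over both lines. LMNA was 1.35 times and DNMT3A 0.860 times as high as in untreated cells. These 2 of 46 regulators (4.35%) compare with 7.22% of all genes tested. The median log2 fold change of the 46 was -0.09, with 30 below 0, and that of all genes was -0.0046. Beside this, the median of the 22 proliferation markers was -0.30 in the same comparison, and their part in it was not tested. With the replicate block 9 regulators (19.6%) were called, 3 higher and 6 lower, against 21.2% of all genes. The count was moved most by untreated DKD replicate 1: without that library 11 regulators were called, against 12% of all genes (1968 of 16380), and without both knock-down libraries numbered 1 there were 13 (28.3%, against 15.8% of all genes). From replicates 2 and 3 alone 25 regulators (54.3%) were called, 6 higher and 19 lower, against 24.4% of all genes. Among these were DNMT1, DNMT3B, UHRF1, TET1, EZH2, EED, RBBP7, CBX2, CBX1, CBX3, CBX5, SUV39H2, TRIM28 and LMNB1, lower by 0.19 to 0.59 on the log2 scale, and KDM5B, KDM6B and SIRT6, higher by 0.22 to 0.31. These genes were called neither with nor without the block when all libraries were used. EED, RBBP7, CBX2, SUV39H2, CBX1, CBX3 and LMNB1 were called without both knock-down libraries numbered 1 as well. All 6 TNFα and all 6 untreated libraries were separate for 3 regulators, LMNA, RBBP4 and HDAC1, against a background of 3.26%.

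In the separate lines no regulator passed the test for TNFα. In CTL cells the edgeR count was 0 against a background of 2.62%, with 6 regulators at an unadjusted p under 0.05 (13.0%, against 13.9% of all genes), and DESeq2 called 4 (8.70%, against 6.64%). In DKD cells the edgeR count was 0 against 1.79%, with 3 at an unadjusted p under 0.05 (6.52%, against 10.1%), and DESeq2 called 2 (4.35%, against 4.06%). With the replicate block 5 regulators were called in CTL cells (10.9%, against 12.6% of all genes) and 2 in DKD cells (4.35%, against 7.67%). Without untreated DKD replicate 1 the edgeR count in CTL cells was 1 (against 4.33% of all genes), which was LMNA, at an adjusted p of 0.0495. Groups did not overlap for 16 regulators in CTL cells (34.8%, against 25.1% of all genes; 4 higher and 12 lower with TNFα) and for 5 in DKD cells (10.9%, against 12.3%; 1 higher and 4 lower).

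The TNFα effect itself was not shown to differ between the lines for any of the 46. The interaction, which is the effect in DKD cells minus that in CTL cells, was called for 0 regulators and 0% of all genes by edgeR, with and without the replicate block. An unadjusted p under 0.05 was found for 0 regulators and 1.14% of all genes, and DESeq2 called 0 regulators and 0.0310% of all genes. The smallest p was that of CBX5, with a log2 difference of 0.23 (SE 0.13, adjusted p = 1 by edgeR). TET1, with 0.26 (SE 0.33), had the highest value of the 46, and KDM6B, with -0.22, was among the lowest.

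**Figure D2:**
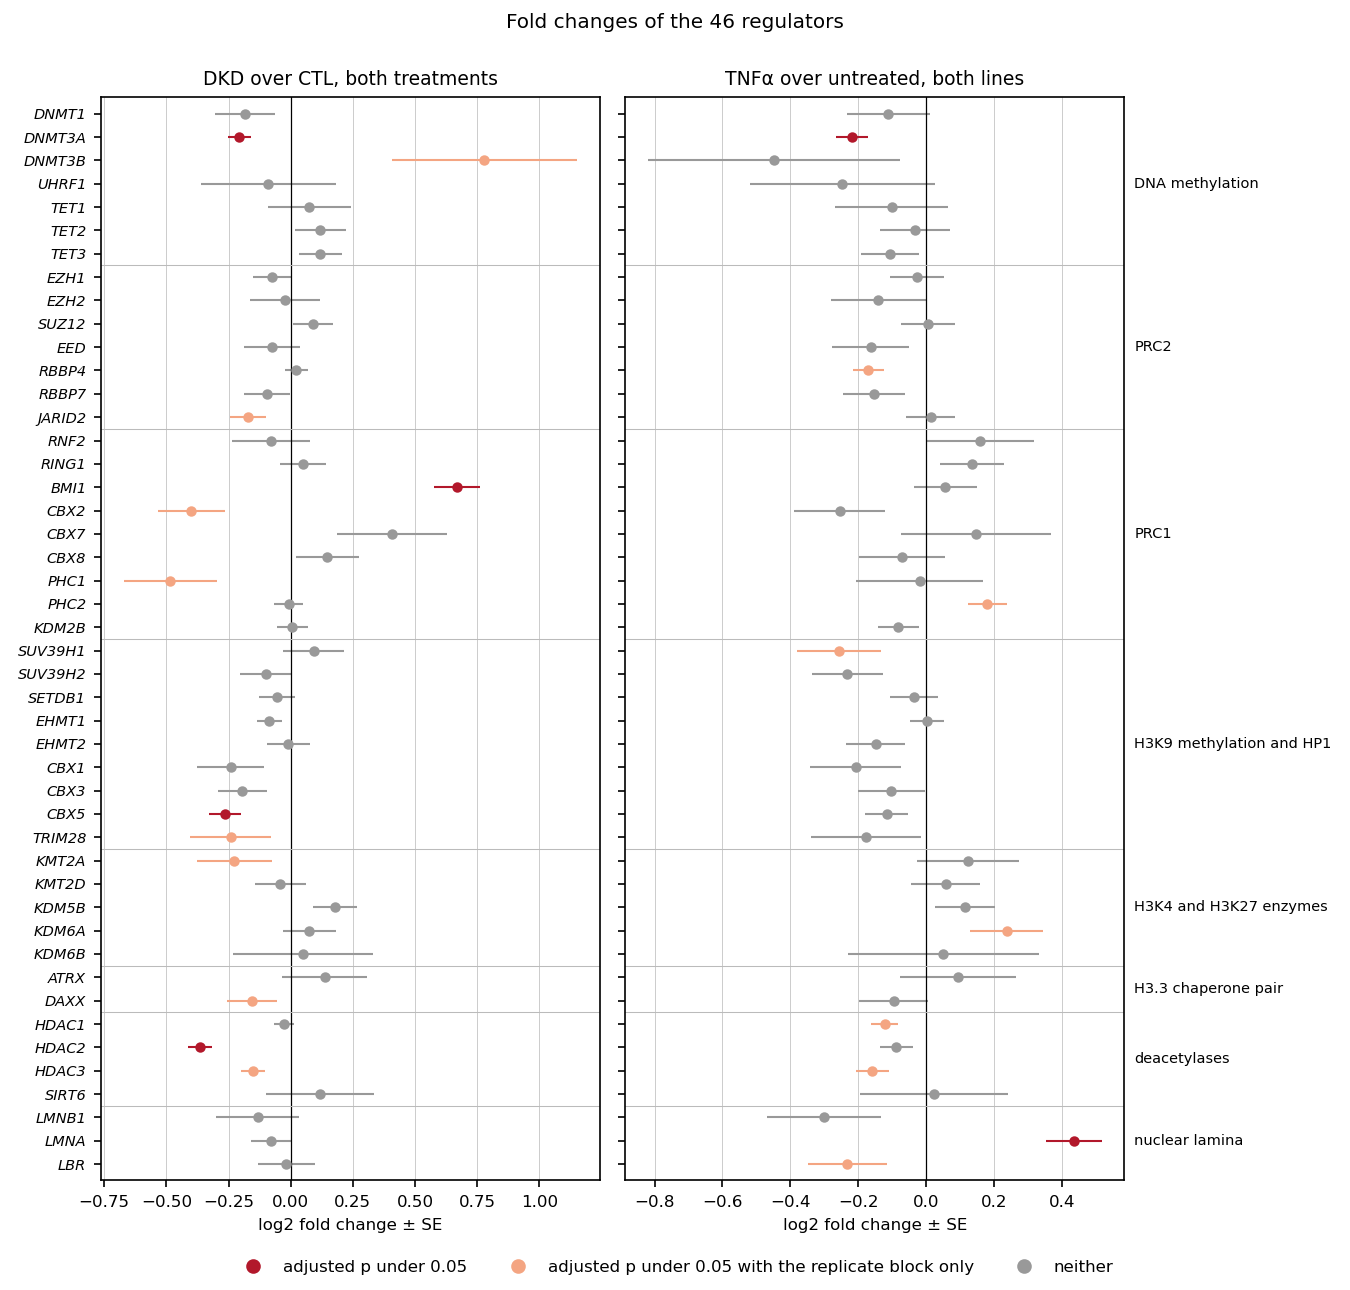
Log2 fold changes with their SE for the 46 regulators, by role, for DKD over CTL averaged over both treatments (left) and TNFα over untreated averaged over both lines (right); dark points passed the test, pale points passed only with the replicate block. BMI1 (0.67) is the highest of the dark points on the left and LMNA (0.44) on the right, and DNMT3A (-0.21 and -0.22) is dark on both sides.

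For the 5 regulators that passed the test in an averaged comparison, the 150 bases before a transcription start show what the start regions hold; where RefSeq lists several starts, the first listed was used. The windows are from RefSeq, build GRCh38.p14, and were searched on both strands for 5 motifs chosen after the values were seen. These were the E-box CACGTG, the CCAAT box (CCAAT), the GC box GGGCGG, the E2F site TTTNGCGC with N any base, and an NF-kB site. Capitals mark a motif on either strand, and adjoining GC boxes overlap. The BMI1 window (chr10:22320949-22321098, plus strand) holds an E-box and 5 GC boxes, the CBX5 window (chr12:54280123-54280272, minus strand) an E-box, a GC box and a CCAAT box, and the LMNA window (chr1:156082423-156082572, plus strand) a CCAAT box and a GC box. The windows of HDAC2 (chr6:113971149-113971298, minus strand) and DNMT3A (chr2:25342484-25342633, minus strand) hold none of the 5. Some other DNMT3A starts listed by RefSeq hold GC boxes in the 250 bases before them, in part with an E-box, and another holds none of the 5 motifs.
BMI1: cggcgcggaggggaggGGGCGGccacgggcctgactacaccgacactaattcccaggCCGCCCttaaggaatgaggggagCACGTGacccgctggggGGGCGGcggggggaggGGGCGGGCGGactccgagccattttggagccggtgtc
CBX5: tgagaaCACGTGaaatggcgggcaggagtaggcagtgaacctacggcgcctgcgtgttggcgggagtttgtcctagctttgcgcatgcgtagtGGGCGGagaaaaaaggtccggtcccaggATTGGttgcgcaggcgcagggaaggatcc
HDAC2: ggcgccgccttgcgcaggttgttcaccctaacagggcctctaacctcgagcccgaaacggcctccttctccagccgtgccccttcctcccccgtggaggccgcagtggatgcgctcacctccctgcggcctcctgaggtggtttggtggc
DNMT3A: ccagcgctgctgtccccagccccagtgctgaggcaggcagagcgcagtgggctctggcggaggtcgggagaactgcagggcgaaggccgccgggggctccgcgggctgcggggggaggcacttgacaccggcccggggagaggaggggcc
LMNA: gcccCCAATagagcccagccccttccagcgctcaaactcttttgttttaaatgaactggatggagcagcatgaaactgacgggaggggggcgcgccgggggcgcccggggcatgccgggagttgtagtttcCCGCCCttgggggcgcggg

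All 5 windows were rich in G and C, from 60.0% for CBX5 to 76.0% for DNMT3A, with 11 to 15 CpG sites each. RefSeq windows were matched for 41 of the 46 regulators, 71 windows in all. Over the 250 bases before the start, the GC box was found in 70.4% of the regulators' windows and in 42.6% of all 35116 windows, and the E-box in 19.7% and 6.34%. The CCAAT box was found in 38.0% and 32.0%, the E2F site in 2.82% and 1.51%, and the NF-kB site in 4.23% and 5.07%. These matches are descriptions of letters, and no binding was measured.

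Among the genes of DNA methylation, DNMT3A, which methylates DNA de novo, was lower in both comparisons (chromosome 2, 25227855 to 25342590, minus strand; positions are from GENCODE v29 on GRCh38). It stood at 49.4, 49.6 and 51.5 CPM in TNFα-treated and 58.5, 57.1 and 57.4 CPM in untreated DKD cells, against 55.9, 56.6 and 59.3 CPM in TNFα-treated and 64.7, 68.5 and 68.7 CPM in untreated CTL cells. Within each treatment every DKD library lay below every CTL library, and within each line every TNFα library lay below every untreated one. TNFα-treated DKD cells were lowest at 50.2 ± 1.13 CPM and untreated CTL cells highest at 67.3 ± 2.24 CPM (SD, n = 3 each), with the groups that had only the knock-down (57.7 ± 0.724) or only TNFα (57.2 ± 1.82) between them. The knock-down effect averaged over both treatments was -0.21 (SE 0.05, adjusted p = 0.0123) and the TNFα effect averaged over both lines -0.22 (SE 0.05, adjusted p = 0.0166), each lower in 6 of 6 pairs of equal replicate number. The interaction was 0.03 on the log2 scale. The averaged TNFα call was lost with no filter on low counts (adjusted p = 0.0556). In the 4 single comparisons DNMT3A passed with the replicate block and not without it, at adjusted p = 0.0187 (DKD without TNFα), 0.0327 (DKD with TNFα), 0.0184 (TNFα in CTL cells) and 0.0488 (TNFα in DKD cells), against 0.0892, 0.13, 0.101 and 0.232 without the block. DESeq2 called it in all 4, at adjusted p of 2.94e-04 to 0.006.

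DNMT3B, the other de novo enzyme, had a positive fold change for DKD over CTL, opposite to DNMT3A. DNMT3B was not called from all libraries without the block. It was at 20.1, 40.0 and 39.7 CPM in TNFα-treated and 14.2, 55.1 and 58.3 CPM in untreated DKD cells, against 12.2, 19.2 and 23.1 CPM in TNFα-treated and 12.4, 29.7 and 37.1 CPM in untreated CTL cells. The library numbered 1 was the lowest of each group, so that the groups overlapped, yet DKD was higher in all 6 pairs, by 0.19 to 1.06 on the log2 scale. The averaged log2 fold change was 0.78 (SE 0.37, adjusted p = 0.209). It passed with the replicate block (0.73, SE 0.15, adjusted p = 0.00341) and from replicates 2 and 3 alone (0.84, adjusted p = 3.11e-04). It also passed without untreated DKD replicate 1 (0.99, adjusted p = 0.0415) and without both knock-down libraries numbered 1 (1.12, adjusted p = 0.014). The fits at 0.99 and 1.12 kept the low CTL libraries numbered 1 (12.2 and 12.4 CPM), so replicate number was not balanced between the lines in them. With TNFα alone the block gave 0.85 (SE 0.21, adjusted p = 0.0166), against an adjusted p of 0.461 without it.

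The other 5 genes of DNA methylation passed neither test in an averaged comparison. DNMT1, which copies methylation to new DNA strands, had log2 fold changes of -0.18 for DKD over CTL and -0.11 for TNFα over untreated. UHRF1 had -0.09 and -0.25, at 108 to 346 CPM over the 12 libraries. Its value for DKD over CTL was 0.10 from replicates 2 and 3 alone and 0.23 without both knock-down libraries numbered 1, and that for TNFα was -0.37 from replicates 2 and 3 alone (adjusted p = 0.00206). TET1, TET2 and TET3, which oxidise methylated cytosine, had 0.08, 0.12 and 0.12 for DKD over CTL and -0.10, -0.03 and -0.11 for TNFα over untreated.

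No gene of PRC2 passed the test without the block. The catalytic subunit genes EZH2 and EZH1 differed little on average, at -0.02 and -0.07 for DKD over CTL and -0.14 and -0.03 for TNFα over untreated. EZH2 stood at 69.3 ± 12.8 CPM in TNFα-treated DKD, 71.6 ± 19.6 CPM in untreated DKD, 66.0 ± 2.30 CPM in TNFα-treated CTL and 77.6 ± 9.49 CPM in untreated CTL cells (SD, n = 3 each). For EZH2, TNFα over untreated was -0.21 from replicates 2 and 3 alone (adjusted p = 0.00732). The core subunit gene SUZ12 had 0.09 for DKD over CTL and 0.01 for TNFα over untreated, and its pseudogene SUZ12P1 had 19.9% as many counts, so these values are uncertain. EED, the other core subunit gene, was lower with TNFα in all 6 pairs (-0.16, SE 0.11) without passing the test. RBBP7, a relative of RBBP4, had -0.10 for DKD over CTL and -0.15 for TNFα over untreated, with no call from all libraries. From replicates 2 and 3 alone the TNFα values of EED and RBBP7 were -0.22 and -0.23 (adjusted p = 0.0172 and 0.012). JARID2, an accessory subunit that helps to recruit PRC2, lay at 27.3, 23.6 and 24.3 CPM in TNFα-treated and 26.2, 24.5 and 21.9 CPM in untreated DKD cells, against 29.0, 26.9 and 26.7 CPM in TNFα-treated and 29.7, 28.3 and 25.96 CPM in untreated CTL cells. It was lower in DKD cells in 6 of 6 pairs, though the groups overlapped. Its averaged fold change of -0.17 passed with the replicate block (adjusted p = 0.0187) and not without it (adjusted p = 0.146).

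RBBP4, a histone-binding subunit shared by PRC2 and deacetylase complexes, lay just outside the threshold for TNFα. It was at 279, 292 and 271 CPM in TNFα-treated DKD cells and 295, 307 and 307 CPM in untreated DKD cells. In CTL cells it was at 281, 260.2 and 255 CPM with TNFα and 319, 293 and 321 CPM without it. All 6 TNFα libraries lay below all 6 untreated ones. The averaged log2 fold change of -0.17 (SE 0.05) had an adjusted p of 0.0523, and passed with the replicate block at 0.0188 and with DESeq2 at 0.00113. In CTL cells alone it was -0.23, called with the block (adjusted p = 0.0347) and not without it (0.11).

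Within PRC1, BMI1 had the clearest change (chromosome 10, 22321211 to 22331484, plus strand). BMI1 is the PCGF partner of the ubiquitin ligases RNF2 and RING1 and is known for repressing the CDKN2A locus. Its level was 91.9, 83.6 and 68.1 CPM in TNFα-treated and 78.7, 81.9 and 71.4 CPM in untreated DKD cells, against 57.8, 51.9 and 42.1 CPM in TNFα-treated and 50.9, 47.7 and 48.7 CPM in untreated CTL cells. Every knock-down library lay above every control library, whatever the treatment. The log2 fold change was 0.66 without TNFα (SE 0.13, adjusted p = 0.0153), 0.68 with TNFα (SE 0.13, adjusted p = 0.0107) and 0.67 on average (SE 0.09, adjusted p = 6.99e-04), higher in 6 of 6 pairs. TNFα over untreated was 0.06 on average, with no call. The call without TNFα was lost without DKD untreated replicate 2 (adjusted p = 0.0642), CTL untreated replicate 2 (0.0723) or CTL untreated replicate 3 (0.0688), and the call with TNFα was lost with only the groups compared (0.0514). The adjusted p averaged over both treatments stayed at 5.48e-04 to 0.00326 over the 12 libraries left out in turn. The read-through gene COMMD3-BMI1 on the same strand had 3.66% as many counts as BMI1, and its reads can be shared with BMI1.

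PHC1 and CBX2 were lower in knock-down cells in all 6 pairs. PHC1, a polyhomeotic subunit of PRC1, had 20.5, 15.5 and 15.2 CPM in TNFα-treated and 26.2, 14.8 and 13.3 CPM in untreated DKD cells, against 29.5, 21.4 and 24.1 CPM in TNFα-treated and 31.1, 20.8 and 20.5 CPM in untreated CTL cells. Replicate 1 was the highest library in every group, so that PHC1 groups overlapped without TNFα and not with it. Its averaged log2 fold change was -0.48 (SE 0.19, adjusted p = 0.118), and -0.50 with the replicate block (SE 0.08, adjusted p = 0.00108). The block also called it without TNFα (adjusted p = 0.0268, against 0.495) and with TNFα (0.00747, against 0.308). PHC1 overlaps M6PR on the opposite strand, which had 667% as many counts, and the strand setting of the counting is not given in the sources used here, so its value is uncertain; the pseudogene PHC1P1 had 14.6% as many counts as PHC1.

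CBX2, a chromodomain reader of H3K27 methylation, had 43.7, 56.7 and 62.2 CPM in TNFα-treated and 43.7, 73.1 and 70.7 CPM in untreated DKD cells, against 64.5, 66.1 and 76.8 CPM in TNFα-treated and 77.2, 92.6 and 86.0 CPM in untreated CTL cells. Within each treatment the DKD and CTL libraries did not overlap. The averaged value of -0.40 (SE 0.13) had an adjusted p of 0.0732, and of 0.00323 with the block; without TNFα the pair was 0.254 and 0.0204. Its replicate 1 libraries in DKD cells were low, and without both of them the value was -0.23 (adjusted p = 0.0526), with the CTL libraries numbered 1 kept. In the pairs of replicates 2 and 3, DKD over CTL was -0.223 and -0.304 with TNFα and -0.341 and -0.283 without it.

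Of the other PRC1 genes, PHC2, a relative of PHC1, was higher with TNFα in all 6 pairs. It stood at 94.6, 106 and 108 CPM in TNFα-treated DKD cells and 89.2, 97.5 and 94.3 CPM in untreated DKD cells, and at 103, 107 and 109.9 CPM in TNFα-treated CTL cells and 85.3, 98.6 and 90.2 CPM in untreated CTL cells. The groups overlapped in DKD cells and not in CTL cells. The averaged value was 0.18 (SE 0.06), at an adjusted p of 0.0909 and of 0.00853 with the replicate block; in CTL cells the values were 0.23, 0.214 and 0.0242. The ubiquitin ligase genes RNF2 and RING1 were likewise higher with TNFα in 6 of 6 pairs, by 0.16 and 0.14 on average, and passed neither test. The smallest pair difference was 0.0046 for RNF2 and 0.049 for RING1. CBX7, another chromodomain reader, had 0.513 to 1.31 CPM and a DKD value of 0.41 (SE 0.22), with 6 of 6 pairs higher and an adjusted p of 0.275. CBX8 and KDM2B, a CpG-binding demethylase that recruits a variant PRC1, had values of 0.15 and 0.01 for DKD over CTL, and were not called.

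**Figure D3:**
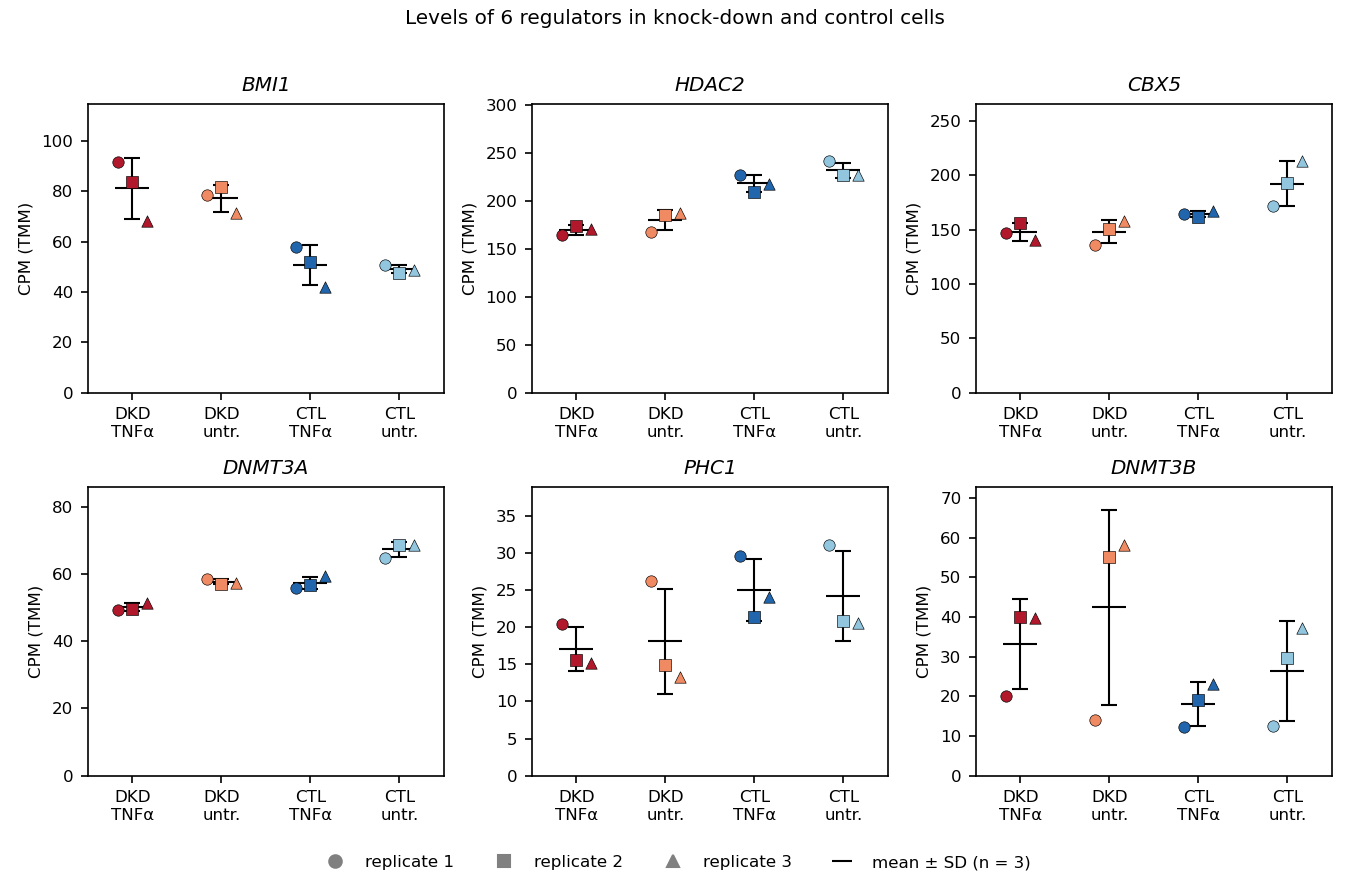
CPM per library of BMI1, HDAC2, CBX5, DNMT3A, PHC1 and DNMT3B in the 4 groups, with symbols for the replicate number and bars for the mean and SD of 3 libraries. BMI1 and HDAC2 separate all 6 DKD from all 6 CTL libraries, at 68.1 CPM or more against 57.8 or less and at 187 or less against 209.5 or more, whereas PHC1 and DNMT3B shift with the replicate number in every group.

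Of the genes of H3K9 methylation and HP1, CBX5, which encodes HP1α, fell in knock-down cells (chromosome 12, 54230940 to 54280133, minus strand). It was at 147, 156 and 140.3 CPM in TNFα-treated and 136, 150.3 and 158 CPM in untreated DKD cells, against 164, 161 and 167 CPM in TNFα-treated and 172, 193 and 213 CPM in untreated CTL cells. All 6 knock-down libraries lay below all 6 control libraries. The averaged log2 fold change was -0.26 (SE 0.06, adjusted p = 0.017), and without TNFα it was -0.38 (SE 0.09, adjusted p = 0.0343). The call without TNFα was lost in 10 of the 12 fits that left out a library, with the highest adjusted p of 0.165 without CTL untreated replicate 3. It was lost too without both knock-down libraries numbered 1 (0.0582), with no filter on low counts (0.0634) and with only the groups compared (0.179). With TNFα the value was -0.15 and not called, and the interaction, given above, did not show that it differed from -0.38.

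The genes of the other HP1 proteins, CBX1 (HP1β) and CBX3 (HP1γ), were also lower in DKD cells in all 6 pairs, at -0.24 (SE 0.14) and -0.19 (SE 0.10), but did not pass either test. Without both knock-down libraries numbered 1 these values were -0.08 and -0.07. For TNFα over untreated, CBX1 had -0.21 and CBX3 -0.10 from all libraries, and -0.33 and -0.19 from replicates 2 and 3 alone (adjusted p = 0.00149 and 0.0251). CBX3 overlaps HNRNPA2B1 on the opposite strand, which had 448% as many counts, and 8 CBX3 pseudogenes together had 11.4% as many. TRIM28, the corepressor that brings SETDB1 to zinc finger proteins, had 204, 271 and 311 CPM in TNFα-treated and 196, 327 and 342 CPM in untreated DKD cells, against 263, 295 and 346 CPM in TNFα-treated and 268, 389.6 and 393 CPM in untreated CTL cells. Its libraries numbered 1 were the lowest of every group, and the groups overlapped. Its averaged value was -0.24 (SE 0.16), called with the replicate block (-0.26, adjusted p = 0.0117) and not without it (0.394). Without both knock-down libraries numbered 1 it was -0.06, in a fit that kept the low CTL libraries numbered 1. In the pairs of replicates 2 and 3, DKD over CTL was -0.127 and -0.157 with TNFα and -0.252 and -0.2 without it.

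The H3K9 methyltransferase genes showed small shifts. SUV39H1 was at 13.4, 16.1 and 17.8 CPM in TNFα-treated DKD cells and 14.97, 20.1 and 22.3 CPM in untreated DKD cells, and at 15.3, 13.3 and 16.4 CPM in TNFα-treated CTL cells and 15.1, 17.9 and 20.0 CPM in untreated CTL cells. The TNFα and untreated libraries overlapped in both lines, with TNFα lower in 5 of 6 pairs. Its averaged TNFα value of -0.26 (SE 0.12) passed with the replicate block (adjusted p = 0.0442) and not without it (0.28). SUV39H2 had -0.23 (SE 0.11, adjusted p = 0.247) in the same comparison, and -0.30 at an adjusted p of 0.00377 from replicates 2 and 3 alone. SETDB1, EHMT1 and EHMT2 had -0.04, 0.00 and -0.15 for TNFα over untreated and -0.06, -0.09 and -0.01 for DKD over CTL; EHMT1 was lower in DKD cells in 6 of 6 pairs. SETDB1 overlaps CERS2, SUV39H2 overlaps DCLRE1C, KDM2B overlaps RNF34 and RBBP7 overlaps TXLNG on opposite strands, with 471%, 47.2%, 93.0% and 32.3% as many counts, so these values are uncertain as well.

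Among the H3K4 and H3K27 enzymes, KDM6A (UTX), which removes H3K27 methylation, was higher with TNFα in all 6 pairs. It was at 51.4, 45.0 and 42.4 CPM in TNFα-treated DKD cells and 49.2, 35.2 and 33.2 CPM in untreated DKD cells, and at 43.9, 47.0 and 40.8 CPM in TNFα-treated CTL cells and 39.5, 39.8 and 32.6 CPM in untreated CTL cells. The libraries overlapped in DKD cells and did not in CTL cells. Its averaged value of 0.24 (SE 0.11) passed with the replicate block (adjusted p = 0.0356) and not without it (0.246).

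KMT2A, an H3K4 methyltransferase, had 100.02, 132 and 125 CPM in TNFα-treated and 69.5, 126 and 119 CPM in untreated DKD cells, against 128, 141 and 133 CPM in TNFα-treated and 98.7, 147 and 138 CPM in untreated CTL cells. Replicate 1 was low in each group and the DKD and CTL libraries overlapped. Its averaged DKD value of -0.23 (SE 0.15) was at an adjusted p of 0.384, and at 0.0492 with the replicate block. The value was -0.06 without both knock-down libraries numbered 1, in a fit that kept the CTL libraries numbered 1. In the pairs of replicates 2 and 3, DKD over CTL was -0.0945 and -0.0875 with TNFα and -0.221 and -0.215 without it. KDM6B, the other H3K27 demethylase gene and known to respond to inflammatory signals in macrophages, ran from 34.0 to 96.3 CPM, with 52.5 ± 21.9 CPM in TNFα-treated and 54.8 ± 35.9 CPM in untreated DKD cells and 54.8 ± 5.85 CPM in TNFα-treated and 49.0 ± 11.0 CPM in untreated CTL cells (SD, n = 3 each). Averaged values from all libraries were 0.05 (SE 0.28) for TNFα over untreated and 0.05 for DKD over CTL. From replicates 2 and 3 alone they were 0.24 (adjusted p = 0.0191) and -0.34 (adjusted p = 0.00362), and TNFα was higher in 5 of 6 pairs. Without both knock-down libraries numbered 1 DKD over CTL was -0.49 (adjusted p = 0.0154), so that the direction between the lines rested on these libraries. The H3K4 demethylase gene KDM5B and the methyltransferase gene KMT2D had averaged values of 0.12 and 0.06 with TNFα and 0.18 and -0.04 for DKD over CTL, without a call.

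DAXX and ATRX together place histone H3.3 in heterochromatin and at telomeres. DAXX was lower in DKD cells in all 6 pairs, at 64.4, 47.5 and 53.9 CPM in TNFα-treated and 69.8, 54.3 and 55.8 CPM in untreated DKD cells, against 69.3, 56.0 and 62.3 CPM in TNFα-treated and 74.1, 59.2 and 63.9 CPM in untreated CTL cells. The groups overlapped, since replicate 1 was the highest of each. The averaged value was -0.16, with an adjusted p of 0.376 and of 0.0132 with the replicate block, and with TNFα the block gave 0.0479 against 0.619. ATRX was at 127 to 242 CPM and had 0.14 (SE 0.17) for DKD over CTL and 0.09 for TNFα over untreated. Without both knock-down libraries numbered 1 DKD over CTL was -0.14, in a fit that kept the CTL libraries numbered 1. In the pairs of replicates 2 and 3 it was 0.0399 and 0.0738 with TNFα and -0.0881 and -0.11 without it.

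HDAC2 fell in knock-down cells with and without TNFα (chromosome 6, 113933028 to 114011308, minus strand; the window shown above lies inside this span). HDAC2 is a class I deacetylase of the NuRD, Sin3 and CoREST complexes, where HDAC1 is its close relative. It was at 164, 173 and 171 CPM in TNFα-treated and 168, 185 and 187 CPM in untreated DKD cells, against 227, 209.5 and 217 CPM in TNFα-treated and 241, 227 and 227 CPM in untreated CTL cells. No knock-down library reached the lowest control library. The log2 fold change was -0.36 without TNFα (SE 0.07, adjusted p = 0.00972), -0.36 with TNFα (SE 0.07, adjusted p = 0.00824) and -0.36 on average (SE 0.05, adjusted p = 4.49e-04), lower in 6 of 6 pairs. The value averaged over both treatments was -0.30 from replicates 2 and 3 alone and -0.33 without both knock-down libraries numbered 1, called in each case. The call without TNFα was lost only when the fit held only the groups compared (adjusted p = 0.09) among the alternatives run. TNFα over untreated was -0.09 on average and was not called.

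HDAC1 differed by -0.03 between the lines and was lower with TNFα in all 6 pairs. Its levels were 147, 149 and 146 CPM in TNFα-treated DKD cells and 155, 159.6 and 157 CPM in untreated DKD cells, and 145, 146 and 152 CPM in TNFα-treated CTL cells and 161, 161 and 168 CPM in untreated CTL cells. All 6 TNFα libraries lay below all 6 untreated ones, with SDs of 1.30 to 4.35 CPM. The averaged value of -0.12 (SE 0.04) had an adjusted p of 0.106, and of 0.0303 with the replicate block.

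HDAC3, the catalytic subunit of the NCoR and SMRT complexes, was lower in both comparisons. It was at 61.5, 61.0 and 65.0 CPM in TNFα-treated and 66.95, 71.4 and 72.0 CPM in untreated DKD cells, against 70.5, 67.7 and 71.3 CPM in TNFα-treated and 80.6, 73.6 and 78.2 CPM in untreated CTL cells. Within each treatment the lines did not overlap. With TNFα the libraries lay below the untreated ones within each line. The averaged values were -0.15 for DKD over CTL (adjusted p = 0.0648, and 0.0175 with the replicate block) and -0.16 for TNFα over untreated (0.0845, and 0.0205 with the block), lower in 6 of 6 pairs each. SIRT6, an NAD-dependent deacetylase, had 0.12 (SE 0.22) for DKD over CTL and 0.02 for TNFα over untreated. Without both knock-down libraries numbered 1 DKD over CTL was -0.20, in a fit that kept the CTL libraries numbered 1. In the pairs of replicates 2 and 3 it was -0.275 and 0.0075 with TNFα and -0.131 and 0.0918 without it. From replicates 2 and 3 alone TNFα over untreated was 0.31 (adjusted p = 0.0317).

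At the nuclear lamina, LMNA rose with TNFα, averaged over both lines (chromosome 1, 156082573 to 156140089, plus strand). It was at 195, 201 and 249.6 CPM in TNFα-treated DKD cells and 146, 163 and 177 CPM in untreated DKD cells, and at 213, 229.6 and 253 CPM in TNFα-treated CTL cells and 154, 179.7 and 171 CPM in untreated CTL cells. All 6 TNFα libraries lay above all 6 untreated ones. The averaged log2 fold change was 0.44 (SE 0.08, adjusted p = 0.00801), higher in 6 of 6 pairs by 0.31 to 0.56. In CTL cells it was 0.46 and in DKD cells 0.41, with adjusted p of 0.065 and 0.139, and of 0.00188 and 0.00451 with the replicate block. The knock-down effect on LMNA was -0.08 on average and was not called.

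LBR and LMNB1 did not pass the test for TNFα when all libraries were used without the block. LBR, the lamin B receptor, was at 175, 156 and 128 CPM in TNFα-treated DKD cells and 173, 177 and 158 CPM in untreated DKD cells, and at 181, 137 and 119 CPM in TNFα-treated CTL cells and 214, 164 and 168 CPM in untreated CTL cells. The groups overlapped in both lines, and TNFα was lower in 5 of 6 pairs. The averaged value of -0.23 (SE 0.12) was called with the block (adjusted p = 0.0242) and not without it (0.307), as was -0.32 in CTL cells (0.0425 and 0.433). LMNB1, the gene of lamin B1, had -0.30 (SE 0.17, adjusted p = 0.368) for TNFα over untreated, lower in 5 of 6 pairs. It was called from replicates 2 and 3 alone (-0.44, adjusted p = 7.2e-04) and without both knock-down libraries numbered 1 (-0.38, adjusted p = 0.00767). It stood at 149 ± 24.7 CPM in TNFα-treated DKD and 172 ± 61.4 CPM in untreated DKD cells, and at 154 ± 9.23 CPM in TNFα-treated CTL and 202 ± 27.2 CPM in untreated CTL cells (SD, n = 3 each), and its libraries did not overlap between treatments in CTL cells.

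**Figure D4:**
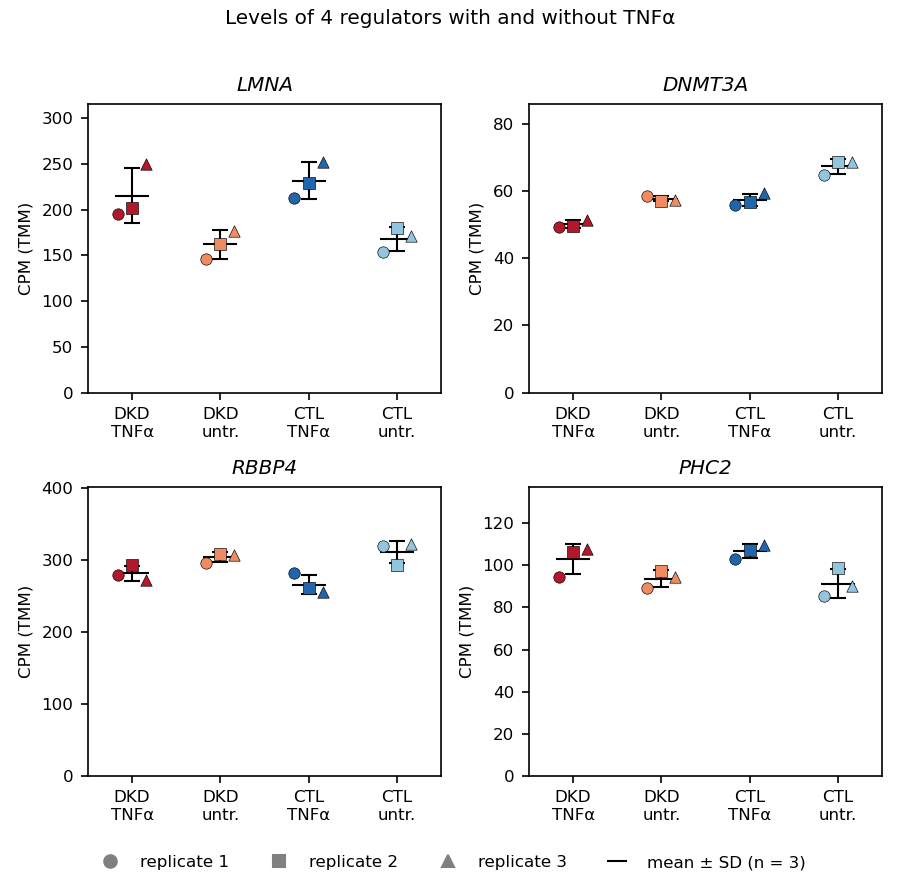
CPM per library of LMNA, DNMT3A, RBBP4 and PHC2 in the 4 groups, with symbols for the replicate number and bars for the mean and SD of 3 libraries. LMNA is higher with TNFα in both lines, at 195 CPM or more against 179.7 or less in untreated cells, and DNMT3A takes its lowest values, 49.4 to 51.5 CPM, where the knock-down and TNFα were combined.

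The partners of these regulators were read from 8 further lists with 110 genes, of which 109 were tested. Between the lines, averaged over both treatments, 8 were higher and 8 lower, or 14.7% against 14.5% of all genes, and with the replicate block 14 were higher and 27 lower (37.6%, against 31.2%). PCGF6, the PCGF subunit of a variant PRC1, fell by 1.13 on the log2 scale in DKD cells (adjusted p = 5.83e-05), opposite to BMI1. ASXL1 and ASXL2, cofactors of the H2A deubiquitinase, fell by 0.27 and 0.46. UHRF2, the relative of UHRF1, rose by 0.80 (adjusted p = 5.1e-05), and TDG, the glycosylase that removes oxidised methylcytosine, fell by 0.64 (adjusted p = 4.13e-04).

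Among H3K9 genes KDM4C, a demethylase, rose by 0.72, while ATF7IP, a partner of SETDB1, fell by 0.34 and KDM3B, another demethylase, by 0.18. The deacetylase list gave HDAC4 (0.54), HDAC11 (0.53) and the NuRD subunit MTA3 (0.26) as higher and 0 genes as lower, which is 12.5% of 24, and with the replicate block 6 were higher and 6 lower. At the envelope EMD, which encodes emerin, fell by 0.34, and TOR1AIP1 and SYNE1 rose by 0.34 and 0.30. None of the 6 further PRC2 genes was called without the block, and 3 were lower with it.

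With TNFα, averaged over both lines, 3 of these 109 genes were higher and 3 lower (5.50%, against 7.22% of all genes), and 20 were called with the replicate block (18.3%, against 21.2%). KDM1B, an H3K4 demethylase, rose by 0.50 with TNFα (adjusted p = 2.60e-04) and was lower in DKD cells (-0.40, adjusted p = 5.06e-04). CHD3, a NuRD remodeller, fell by 0.44 and the Polycomb gene SCMH1 by 0.28. The corepressor gene NCOR1 rose by 0.18 and SYNE1, which links the nucleus to the cytoskeleton, by 0.36, and the histone chaperone gene NASP fell by 0.34.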

How the data were processed

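The 12 libraries were analysed from the authors' deposited table of estimated counts, in whole numbers, with 1 line for each gene symbol. CASAVA 1.7, Salmon 0.14.0, DESeq2 and GRCh38/hg38 are named in the submitters' processing notes, without their roles. How transcripts were joined to genes, with which annotation and strand option, is not given in the sources used here. Salmon can split reads between genes that share sequence, and reads of overlapping genes on opposite strands could not be told apart, so such genes are marked as uncertain. A second deposited table of normalised values was not used.

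Counts were tested with edgeR 4.0.16 in R 4.3.3 (glmQLFit and glmQLFTest): TMM factors, filterByExpr with a minimum count of 10 and a minimum total of 15, 1 mean for each of the 4 groups, 8 residual degrees of freedom, and Benjamini-Hochberg adjustment over 16118 genes. Genes with an adjusted p under 0.05 count as called. The contrasts were TNFα in each line, DKD over CTL in each treatment, their averages, and the interaction. The step was tested on simulated counts drawn without a shared effect of replicate number, so that test does not cover such an effect.

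Same-numbered libraries of different groups deviated together in all 18 pairs (correlation of the deviations from the group means 0.193 to 0.695), so the fit with the replicate number as a block is given where it changed a call; what a number stands for is not in the labels. Other alternatives were DESeq2 1.42.0, DESeq2 size factors in edgeR, no filter, replicates 2 and 3 only, only the groups compared, each library left out, and both DKD libraries numbered 1 removed, the last chosen after seeing the data. The last kept the CTL libraries numbered 1, so its DKD over CTL values also carry differences between replicate numbers.

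The regulators and all lists were chosen with earlier results of these data known. Full statistics are given for regulators called in a comparison, with or without the block, or, where fewer than 4 were called, the 4 with the smallest p; of each further list up to 3 called genes with the smallest p are named. A planned list of regulators with the most similar profiles is left out, since it needs a correlation over all 12 libraries, of which those of DKD replicate 1 stood apart. Promoter windows are from RefSeq.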

Additional observations from a re-analysis of the deposited data

How the results depend on the processing

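The number of regulators called moved with the setting. With the replicate block the counts were 5 and 2 for TNFα in CTL and in DKD cells, 6 and 6 for DKD without and with TNFα, 9 for the averaged TNFα effect and 12 for the averaged knock-down effect. From replicates 2 and 3 alone they were 13, 4, 7, 5, 25 and 9 in the same order, against 13.8%, 8.43%, 12.3%, 14.7%, 24.4% and 25.4% of all genes; the first 4 are 28.3%, 8.70%, 15.2% and 10.9% of the 46. DESeq2 gave 4 and 2 for TNFα in CTL and DKD cells (against 6.64% and 4.06% of all genes) and 6 for the averaged TNFα effect. Without both DKD libraries numbered 1, chosen after seeing the data, TNFα in CTL cells gave 5 (10.9%, against 8.6% of all genes). The averaged TNFα effect gave 13 and the averaged knock-down effect 9 in that fit. With only the groups compared, TNFα in CTL cells gave 1 (against 4.47% of all genes), and DKD without and with TNFα gave 1 each (against 2.15% and 5.22%). With no filter on low counts the averaged TNFα effect gave 1. For the averaged TNFα effect, the shares of all genes with DESeq2 and with no filter are not given here. Leaving out 1 library gave 0 to 1 for TNFα in CTL cells, 1 to 3 for DKD without TNFα, and 2 to 11 for the averaged TNFα effect, with the highest count without untreated DKD replicate 1. The count of 0 for the interaction was the same in all of these fits.

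Under the alternatives, 76 fold changes of 32 regulators that were called in any fit gave 1405 values. Of these 1233 kept their sign and side of the threshold, 19 were no longer past it, 130 were newly past it, and 23 changed sign. Of the 19, 13 belonged to CBX5 without TNFα. The sign changes were those of KDM6B, SIRT6 and TET1. For KDM6B, DKD over CTL was -0.32 without TNFα from replicates 2 and 3 and -0.52 without both DKD libraries numbered 1. Averaged over both treatments it was -0.058 with the replicate block, -0.34 from replicates 2 and 3, and -0.49 without both DKD libraries numbered 1. Leaving out 1 library gave KDM6B values from -0.52 to 0.41 without TNFα, -0.46 to 0.12 with TNFα and -0.29 to 0.17 on average for DKD over CTL, and -0.15 to 0.38 for TNFα over untreated. In the fits that left out 1 library, averaged TNFα values ran from -0.0825 to 0.25 for SIRT6 and from -0.24 to 0.0093 for TET1. Over all alternatives the highest SIRT6 value was 0.3128 and the lowest TET1 value was -0.2947. Beyond the calls named in the results, the replicate block changed no call. The cause of these shifts was not tested. Depth limits CBX7, with 16 to 54 counts. Only the groups compared could not be used for the interaction and the averages, which need all 4 groups.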
